A study of Mus musculus with 6 samples.

Results

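The transcription factor NRF2 and 9 of its target genes were followed in mouse osteoblasts treated with dexamethasone, with or without extracellular vesicles from endothelial progenitor cells (EPC-EVs). They were chosen by symbol from the gene table and make up 10 of its 21686 genes. *Nfe2l2* encodes NRF2 itself, and the genes it is known to control are *Nqo1*, *Txnrd1*, *Srxn1*, *Prdx1*, *G6pdx*, *Pgd*, *Taldo1*, *Tkt* and *Me1*. All 10 symbols were found once in the table, and all 10 genes passed the filter on low counts in each comparison.

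NRF2 is made all the time and is destroyed almost as fast, because KEAP1 hands it to a CUL3 ubiquitin ligase. Oxidants and other reactive chemicals stop that transfer, and NRF2 then enters the nucleus, pairs with a small MAF protein and binds antioxidant response elements in DNA. Among the genes it switches on are a quinone reductase (*Nqo1*), enzymes that repair and use the thioredoxin system (*Txnrd1*, *Srxn1*, *Prdx1*), and the enzymes that keep NADPH, the reducing power behind that system, in supply (*G6pdx*, *Pgd*, *Taldo1*, *Tkt*, *Me1*). Glucocorticoids are known to place osteoblasts under oxidative stress. The libraries measured RNA, so NRF2 protein, enzyme activity and NADPH itself were not seen.

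The cells were MC3T3-E1 Subclone 14, a pre-osteoblast line from mouse calvaria that descends from 1 clone, grown in 1640 medium. Control cells received 100 µL PBS, dexamethasone cells received 10 µM dexamethasone, and dexamethasone + EPC-EVs cells received 10 µM dexamethasone together with 100 µg of EPC-EVs ("EPCs-exo" in the labels), vesicles secreted by progenitors taken from mouse bone marrow; each treatment lasted 72 hours and each group had 2 libraries. No group received EPC-EVs without dexamethasone, and the labels give no PBS for the dexamethasone groups. The series' design text names fibroblasts and a shorter treatment, and the labels of the single samples were followed here.

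Library totals were 5146760 to 6583735 counts in the control and dexamethasone groups and 12864009 to 13182014 in the dexamethasone + EPC-EVs group. Genes encoded in the mitochondrial genome took 7.46% and 8.62% of counts in control, 5.55% and 5.78% with dexamethasone and 0.465% and 0.727% with EPC-EVs added, where the noncoding RNA *Gm26917* was the most counted gene. Of 12 osteoblast markers, *Runx2*, *Col1a1*, *Col1a2*, *Sparc* and *Spp1* were abundant, with at least 904 counts in every library, as was *Dmp1* (332 to 2367 counts), whereas *Alpl*, *Ibsp*, *Bglap* and *Bglap2* did not pass 83 counts in any; *Phex* had 45 to 165 counts and *Sp7* 6 to 260. With EPC-EVs added to dexamethasone 3 of 10 tested osteoblast markers rose, *Col1a2* (3.71-fold), *Col1a1* (2.85-fold) and *Sparc* (2.37-fold), and 2 fell, *Spp1* (to 47.9%) and *Phex* (to 26.4%), against 20.9% and 18.9% of all genes. Of 7 tested glucocorticoid receptor targets edgeR called 0 between dexamethasone and control, with 2 lower at an unadjusted p under 0.05, against 5.33% of all genes. With EPC-EVs added to dexamethasone 4 of the 7 rose, named here after their values were seen: *Tsc22d3* (5.27-fold), *Dusp1* (4.64-fold), *Sgk1* (1.68-fold) and *Fkbp5* (1.66-fold), where 20.9% of all genes rose; against control 3 of the 7 were called higher and 1 lower, against 19.1% and 17.2%. The endothelial marker *Cdh5* had 0 counts in every library but 1, which had 1 count. The summed level of 8 measured endothelial markers, nearly all of it *Cd34*, was 363 to 373 CPM with dexamethasone and 244 to 290 CPM with EPC-EVs added. CPM are counts scaled to a common library total. Of 4 tested endothelial markers 1 fell, *Cd34* (to 70.2%, edgeR adjusted p = 0.00962), against 18.9% of all genes. The only tested adipocyte marker, *Fabp4*, had 65 and 15 counts with dexamethasone and 9 and 2 with EPC-EVs added (to 7.4%, edgeR adjusted p = 0.0107). The 7 measured haematopoietic markers summed to 21.1 to 24.6 CPM in control, 21.7 to 27.2 CPM with dexamethasone and 44.7 to 88.8 CPM with EPC-EVs added. Of the 5 tested 1 was called higher against dexamethasone, where 20.9% of all genes were, and 2 against control, where 19.1% were. *Cd14* was called in both, at 63 and 37 counts in control, 21 and 49 with dexamethasone and 306 and 425 with EPC-EVs added (5.43-fold of dexamethasone, edgeR adjusted p = 0.000537, and 3.15-fold of control, 0.00853). *Csf1r* had 12 and 0 counts in control, 20 and 8 with dexamethasone and 56 and 471 with EPC-EVs added, and was called against control (edgeR adjusted p = 0.0259). With EPC-EVs added, in libraries of greater depth, *Lyz2* had 148 and 198 counts, *Cd68* 36 and 21, *Fcer1g* 14 and 16, *Laptm5* 4 and 0, and *Adgre1* 0 in both. Scaled for depth, *Lyz2* was 1.13-fold and *Fcer1g* 1.04-fold of dexamethasone and *Cd68* was at 54.3%, none of them called. *Laptm5* and *Adgre1* were too low to be tested, and *Ptprc*, *Itgam* and *Tyrobp* were not among the measured genes.

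NRF2 binds a core that reads TGACNNNGC on either strand, and the windows from 250 bases before to 50 bases after each RefSeq start (GRCm38.p6) were searched for these letters. Of the 10 genes, 7 held the core in at least 1 of their 14 windows, and 14.0% of all 27025 genes with a window did. Each match is shown with 10 bases on either side, written 5′ to 3′ on the strand that carries the motif, with the core in capitals.
*Nfe2l2*, chr2:75704885-75704913, minus strand: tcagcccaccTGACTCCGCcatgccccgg
*Txnrd1*, chr10:82859104-82859132, minus strand: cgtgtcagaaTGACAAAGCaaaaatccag
*Srxn1*, chr2:152105542-152105570, minus strand: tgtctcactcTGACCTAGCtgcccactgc
*Prdx1*, chr4:116685456-116685484, minus strand: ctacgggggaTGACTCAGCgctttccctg
*G6pdx*, chrX:74428919-74428947, plus strand: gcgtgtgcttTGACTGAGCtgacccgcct
*Pgd*, chr4:149166061-149166089, minus strand: atttcagagcTGACATTGCactgatcgga
*Me1*, chr9:86695902-86695930, minus strand: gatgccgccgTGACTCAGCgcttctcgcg

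In *Nfe2l2*, *Txnrd1*, *Prdx1* and *G6pdx* the core lay before the RefSeq start of its window. Its end farther from the start, counted along the gene, lay 240, 92, 133 and 57 bases upstream. It lay just after the start in *Srxn1* (from base 29) and *Pgd* (from base 4), and it spanned the start itself in *Me1*. The core was in 1 of 3 windows of *Txnrd1* and in 1 of 2 windows each of *Pgd* and *Me1*; those of *Txnrd1* and *Pgd* belong to alternative starts that lie inside the gene, downstream of its outermost start. *Prdx1* and *Me1* shared the form TGACTCAGC, which also contains the AP-1 site TGANTCA and was found in 0.503% of all genes. No core was found in the single windows of *Nqo1*, *Taldo1* and *Tkt*; this says only that the letters are not in these windows. In the wider lists described further on, 3 of 13 other NRF2 targets with a window held the core (23.1%), 3 of 10 regulators of NRF2 (30%), 1 of 16 genes of the thioredoxin and related families (6.25%) and 0 of 14 other genes of the pentose phosphate pathway and NADPH supply. The median GC content of the 14 windows was 60.3%, against 52.7% over all windows.

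Levels are first given as CPM scaled by the trimmed mean of M-values (TMM) over the 6 libraries, in the order control, dexamethasone, dexamethasone + EPC-EVs, with replicate 1 before replicate 2.

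*Nfe2l2* (ENSMUSG00000015839.6, chr2:75675513-75704641, minus strand) was measured at 368.6 and 366.9 CPM in control, 285.3 and 299.4 CPM with dexamethasone and 112.8 and 119.7 CPM with EPC-EVs added. The 3 groups did not overlap, and the replicates within each lay close together. The RNA that encodes NRF2 was thus lowest in the group that received EPC-EVs.

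*Nqo1* (ENSMUSG00000003849.8, chr8:107388225-107403206, minus strand), which reduces quinones in a step that spares the cell free radicals, was measured at 56.52 and 48.57 CPM in control, 117.8 and 113.7 CPM with dexamethasone and 77.46 and 38.15 CPM with EPC-EVs added. Both dexamethasone libraries stood above all others, and the 2 EPC-EVs libraries lay on either side of the controls. *Txnrd1* (ENSMUSG00000020250.10, chr10:82833951-82897712, plus strand), the selenoenzyme that recharges thioredoxin with electrons from NADPH, was measured at 178.5 and 211.8 CPM in control, 219.4 and 240.7 CPM with dexamethasone and 123.6 and 122.5 CPM with EPC-EVs added. Its EPC-EVs libraries were the lowest and its dexamethasone libraries the highest.

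*Srxn1* (ENSMUSG00000032802.8, chr2:152105516-152111376, plus strand) encodes sulfiredoxin, which rescues peroxiredoxins that have been oxidized too far. It was measured at 74.27 and 32.84 CPM in control, 126.8 and 102.5 CPM with dexamethasone and 97.97 and 90.35 CPM with EPC-EVs added. The 2 controls differed from each other more than any other pair did. *Prdx1* (ENSMUSG00000028691.12, chr4:116685544-116700822, plus strand), a peroxiredoxin that removes hydrogen peroxide, was measured at 165.5 and 149.1 CPM in control, 338.3 and 308.1 CPM with dexamethasone and 334.9 and 292.2 CPM with EPC-EVs added. The 4 libraries with dexamethasone overlapped whether or not EPC-EVs were present, and all 4 stood above both controls.

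*G6pdx* (ENSMUSG00000031400.10, chrX:74409483-74429194, minus strand), which catalyses the first and NADPH-yielding step of the pentose phosphate pathway, was measured at 135.8 and 70.07 CPM in control, 166.4 and 159.6 CPM with dexamethasone and 154.4 and 134.9 CPM with EPC-EVs added. Control replicate 1 lay among the EPC-EVs libraries. *Pgd* (ENSMUSG00000028961.15, chr4:149149991-149166771, minus strand), the second enzyme of the pathway that yields NADPH, was measured at 57.17 and 34.24 CPM in control, 96.08 and 83.47 CPM with dexamethasone and 127 and 132.4 CPM with EPC-EVs added. Its 3 groups did not overlap, with control lowest and EPC-EVs highest.

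*Taldo1* (ENSMUSG00000025503.5, chr7:141392199-141402968, plus strand) and *Tkt* (ENSMUSG00000021957.7, chr14:30548359-30574720, plus strand) encode transaldolase and transketolase, which return pentoses to glycolysis. *Taldo1* was measured at 26.39 and 26.27 CPM in control, 43.97 and 34.74 CPM with dexamethasone and 69.06 and 59.66 CPM with EPC-EVs added. *Tkt* was measured at 81.93 and 76.24 CPM in control, 126.4 and 128.7 CPM with dexamethasone and 173.9 and 135.3 CPM with EPC-EVs added. Both had the same order of groups as *Pgd*, with no overlap. *Me1* (ENSMUSG00000032418.15, chr9:86581371-86695953, minus strand), the cytosolic malic enzyme that makes NADPH from malate, was measured at 114.8 and 114.7 CPM in control, 133.8 and 132.3 CPM with dexamethasone and 135.3 and 216.5 CPM with EPC-EVs added. Its 2 EPC-EVs libraries stood apart, the first next to the dexamethasone libraries and the second far above them.

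**Figure D1:**
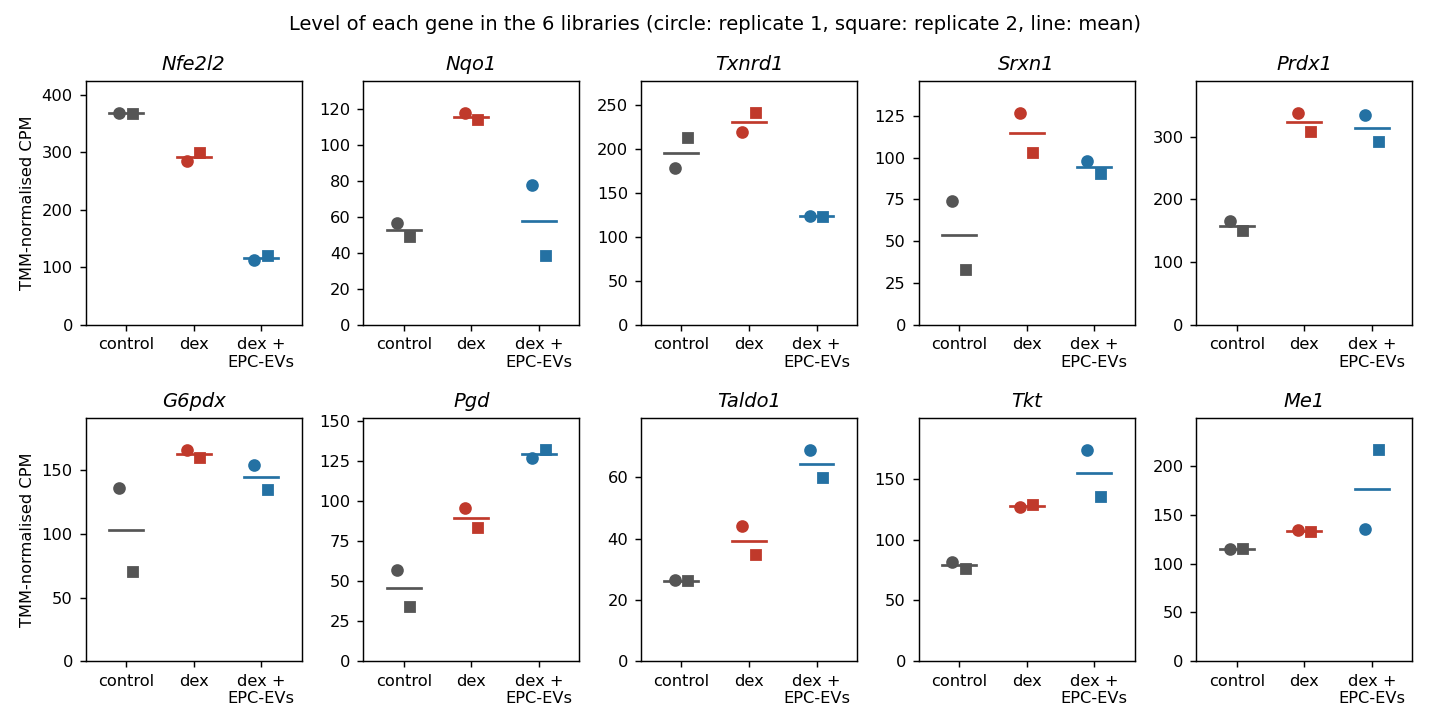
Level of each of the 10 genes in TMM-normalised CPM (vertical axes, each from 0) in the 6 libraries, by group; circles are replicate 1, squares replicate 2 and lines the mean of the 2. The mean of *Nfe2l2* is 367.7 CPM in control and 116.2 CPM with EPC-EVs added, *Nqo1* peaks with dexamethasone at a mean of 115.7 CPM, and the group means of *Pgd*, *Taldo1* and *Tkt* are lowest in control and highest with EPC-EVs added; none of these differences from control passed the test with dexamethasone alone, nor did that of *Tkt* between the dexamethasone groups.

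Some of these exons are shared with other genes. The exons of *G6pdx* overlap those of *Ikbkg* on the opposite strand, which had 2451 counts over the 6 libraries. *G6pdx* reads may also be shared with its intronless copy *G6pd2*. The study's methods name a strand setting (RF) for the alignment, but whether the counting used strand is not given in the sources used here. The *G6pdx* values are uncertain to that extent. The exons of *Me1* overlap the antisense gene *A330041J22Rik*, which had 4 counts. No exon of the other 8 genes overlaps that of a gene with counts of its own.

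Expression per length was compared within each group on the authors' FPKM values, which are not scaled between libraries. In control, *Nfe2l2* led at 94.33 and 97.3 FPKM, *Prdx1* followed at 47.82 to 54.49 FPKM, and *Pgd* was last at 5.184 to 8.886 FPKM. In the run of means *Nqo1*, *G6pdx*, *Me1*, *Txnrd1* and *Srxn1* between them, *G6pdx* and *Srxn1* had the widest spread and overlapped their neighbours, while *Nqo1* at 30.53 to 36.47 FPKM lay above *Me1* at 29.08 to 29.9 FPKM. With dexamethasone *Prdx1* was first at 104.6 to 116 FPKM, and *Nfe2l2* at 78.43 to 81.49 FPKM overlapped *Nqo1* at 75.6 to 79.12 FPKM. With EPC-EVs added, *Prdx1* stayed first at 92.81 to 108 FPKM, *Nfe2l2* was sixth at 29.16 to 30.48 FPKM, overlapping *Taldo1*, and *Txnrd1* was last at 16.7 to 17.11 FPKM.

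The first comparison asks how these genes differ between dexamethasone and untreated osteoblasts. In the dexamethasone libraries 9 of the 10 genes, all but *Nfe2l2*, were higher than in both controls, and *Nfe2l2* was lower than in both; over all 12879 genes tested, 22.8% were higher and 21.2% lower without overlap. The median log2 fold change of the 10 genes was 0.67, against 0.01 over all genes. None of the 10 passed edgeR's quasi-likelihood test at an adjusted p under 0.05, a threshold that 0.0544% of all genes passed. At an unadjusted p under 0.05, 6 were higher, against 5.61% of all genes, and 1 was lower, against 5.33% of all genes.

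The largest differences were in *Nqo1*, *Srxn1* and *Prdx1*. *Nqo1* had a mean of 115.7 ± 2.92 CPM (SD, n = 2) with dexamethasone and 52.54 ± 5.62 CPM in control, a 2.19-fold difference (log2 1.13, SE 0.19, edgeR adjusted p = 0.101). *Srxn1* was 2.12-fold of control (log2 1.09, SE 0.32, edgeR adjusted p = 0.305) and *Prdx1* 2.05-fold (log2 1.03, SE 0.16, edgeR adjusted p = 0.051). *Prdx1* thus lay next to the threshold, and the wide error of *Srxn1* accompanied the gap between the 2 controls. Without control replicate 1 the log2 fold change of *Srxn1* was 1.805.

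Among the enzymes of NADPH supply, *Pgd* was 1.95-fold of control (log2 0.96, SE 0.26, edgeR adjusted p = 0.286), *Tkt* 1.6-fold (log2 0.68, SE 0.18, edgeR adjusted p = 0.279) and *G6pdx* 1.57-fold (log2 0.66, SE 0.26, edgeR adjusted p = 0.41). *Taldo1* had a log2 fold change of 0.57 (SE 0.27, edgeR adjusted p = 0.469), *Txnrd1* of 0.23 (SE 0.16, edgeR adjusted p = 0.632) and *Me1* of 0.21 (SE 0.17, edgeR adjusted p = 0.686). *Nfe2l2* was at 79.2% of control (log2 -0.34, SE 0.14, edgeR adjusted p = 0.425). The 95% interval of the log2 fold change covered 0 for *Txnrd1*, *Taldo1* and *Me1*.

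These calls depended on the test and on single controls. DESeq2 called 4 of the 10 higher (*Nqo1*, *Srxn1*, *Prdx1* and *Pgd*), against 0.819% of the genes for which it gave an adjusted p. It gave one to 4886 genes, and a gene without one is counted as not called, here and in the wider lists. Without control replicate 1 edgeR called 6 higher (those 4 with *G6pdx* and *Tkt*), against 9.25% of all genes, and without control replicate 2 it called 2 higher (*Nqo1* and *Prdx1*), against 0.358%; in both fits the lone control is taken to vary like the dexamethasone libraries. With either dexamethasone library left out none was called. Of 11 tested mitochondrial genes all were lower with dexamethasone. At an unadjusted p under 0.05 there were 8, against 5.33% of all genes, and 2 were called (*mt-Nd2* and *mt-Cytb*), against 0.0544%. The part of the mitochondrial genes in these differences was not tested. With them left out, which changes only the scaling, again 0 of the 10 were called.

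**Figure D2:**
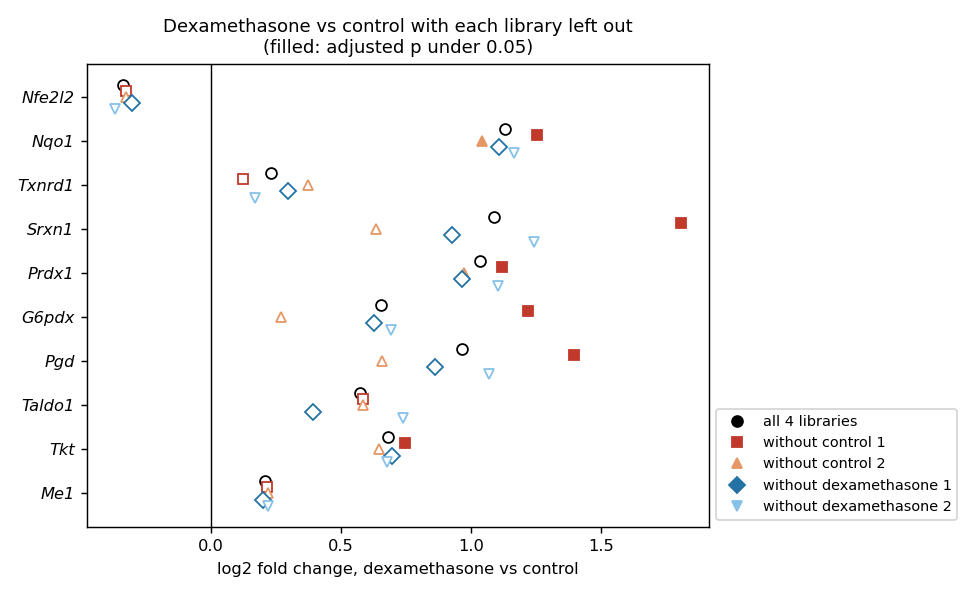
Log2 fold change between dexamethasone and control for each of the 10 genes (horizontal axis) with all 4 libraries and with each left out in turn (symbols); filled symbols mark an adjusted p under 0.05 in edgeR. No gene changes sign; the 6 filled squares are the calls without control replicate 1 and the 2 filled triangles those without control replicate 2.

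The second comparison asks what EPC-EVs added to dexamethasone. *Nfe2l2*, *Nqo1* and *Txnrd1* fell, *Pgd* and *Taldo1* rose, and the other 5 did not pass the test. That makes 5 of 10 called, against 39.8% of the 13556 genes tested, with 2 higher against 20.9% and 3 lower against 18.9%, so the share called was near that of all genes. Without overlap between the groups 4 were higher, against 38.5% of all genes, and 5 lower, against 34%. The median log2 fold change of the 10 genes was -0.15, against 0.01 over all genes.

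*Nfe2l2* fell from 292.4 ± 9.97 to 116.2 ± 4.9 CPM (SD, n = 2), to 38.5% of its level with dexamethasone alone (log2 -1.38, SE 0.13, edgeR adjusted p = 1.42e-05). *Txnrd1* fell from 230 ± 15.1 to 123 ± 0.775 CPM, to 51.8% (log2 -0.95, SE 0.13, edgeR adjusted p = 0.000202). *Nqo1* fell from 115.7 ± 2.92 to 57.8 ± 27.8 CPM, to 48.4% (log2 -1.05, SE 0.27, edgeR adjusted p = 0.0102). The spread of *Nqo1* between the 2 EPC-EVs libraries was about as wide as its level in the lower of them. Its call was lost without either dexamethasone library (edgeR adjusted p = 0.095 and 0.0827), whereas those of *Nfe2l2* and *Txnrd1* held under every alternative tried other than the fold threshold of the study's methods.

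*Taldo1* rose 1.58-fold (log2 0.66, SE 0.20, edgeR adjusted p = 0.0196) and *Pgd* 1.4-fold (log2 0.49, SE 0.15, edgeR adjusted p = 0.0214). Each call was lost with 1 library left out, *Taldo1* without dexamethasone replicate 2 (edgeR adjusted p = 0.15) or EPC-EVs replicate 1 (0.071) and *Pgd* without dexamethasone replicate 1 (0.0541) or replicate 2 (0.174). *Taldo1* was not called with a trend over GC content and length removed (0.309), nor *Pgd* in one fit of all 6 libraries (0.119). Of the genes that did not pass, *Srxn1* had a log2 fold change of -0.33 (95% interval -0.67 to 0.01), *G6pdx* of -0.22 (-0.52 to 0.08) and *Prdx1* of -0.09 (-0.37 to 0.19). *Tkt* had 0.23 (-0.10 to 0.57) and *Me1* 0.36 (-0.07 to 0.78); *Tkt* was called higher without EPC-EVs replicate 2 (edgeR adjusted p = 0.0263) and *Me1* without EPC-EVs replicate 1 (0.000724), with no filter on low counts (0.0399) and with a trend over GC content and length removed (0.0345). The interval of *Prdx1* leaves out a 2-fold difference in either direction.

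The number called was 3 of 10 without dexamethasone replicate 1, against 26% of all genes, and 2 without dexamethasone replicate 2, against 22.3%. With a trend of fold change over GC content and transcript length removed it was 8, against 31.6% of all genes: *Nfe2l2*, *Nqo1*, *Txnrd1*, *Srxn1* and *G6pdx* were then lower, and *Prdx1*, *Pgd* and *Me1* higher. With the mitochondrial genes left out before scaling the same number, 5, was called.

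**Figure D3:**
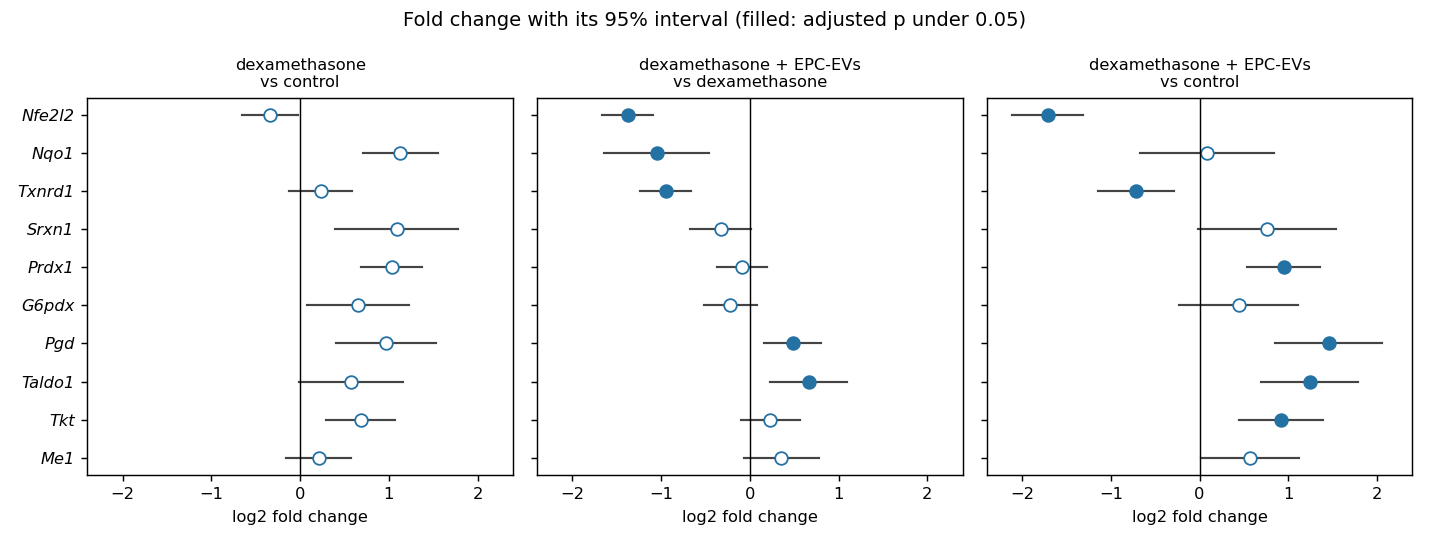
Log2 fold change of each gene (horizontal axis) in the 3 comparisons, from edgeR on 4 libraries each; lines are 95% intervals and filled circles mark an adjusted p under 0.05. With EPC-EVs added, *Nfe2l2* and *Txnrd1* lie left of 0 against both other groups, whereas *Pgd* and *Taldo1* lie right of it; no circle is filled between dexamethasone and control.

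The third comparison sets dexamethasone + EPC-EVs against untreated cells. *Prdx1* and the pentose phosphate genes *Pgd*, *Taldo1* and *Tkt* rose, and *Nfe2l2* and *Txnrd1* fell. These are 6 of 10, against 36.4% of the 13511 genes tested, with 4 higher against 19.1% and 2 lower against 17.2%. Without overlap 6 were higher, against 39.1% of all genes, and 2 lower, against 33.9%. The median log2 fold change was 0.67 for the 10 genes and 0.02 for all.

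*Pgd* was 2.74-fold of control (log2 1.45, SE 0.26, edgeR adjusted p = 0.00381), *Taldo1* 2.36-fold (log2 1.24, SE 0.24, edgeR adjusted p = 0.00487), *Prdx1* 1.93-fold (log2 0.95, SE 0.18, edgeR adjusted p = 0.00478) and *Tkt* 1.89-fold (log2 0.92, SE 0.21, edgeR adjusted p = 0.00988). *Nfe2l2* was at 30.6% of control (log2 -1.71, SE 0.18, edgeR adjusted p = 0.000431) and *Txnrd1* at 60.9% (log2 -0.72, SE 0.19, edgeR adjusted p = 0.0179). The *Txnrd1* call was lost without either EPC-EVs library (edgeR adjusted p = 0.102 and 0.113) and that of *Tkt* without EPC-EVs replicate 1 (0.0927). With the GC and length trend removed, *Tkt* (0.366) and *Taldo1* (0.0898) were no longer called.

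*Nqo1* was not called against control (log2 0.09, 95% interval -0.67 to 0.84, edgeR adjusted p = 0.86). *Srxn1* had a log2 fold change of 0.76 (-0.02 to 1.54, edgeR adjusted p = 0.113), *G6pdx* of 0.44 (-0.23 to 1.11, edgeR adjusted p = 0.271) and *Me1* of 0.57 (0.01 to 1.12, edgeR adjusted p = 0.101). The intervals are wide, and these 4 genes were not shown to be at the control level. Without control replicate 1 *Srxn1* (log2 1.51, edgeR adjusted p = 0.00122) and *G6pdx* (log2 1.04, edgeR adjusted p = 0.00454) were called, while *G6pdx* had a log2 fold change of 0.06 without control replicate 2. *Srxn1* was also called with no filter (0.00496) and with the replicate number as a block (0.0451). *Me1* was called without EPC-EVs replicate 1 (0.0245), with no filter (0.0218), with all 6 libraries in one fit (0.0417) and with the GC and length trend removed (0.0183). Any 2 of the 3 comparisons share the libraries of 1 group, and their values for a gene are not independent.

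Under the threshold for genes in the study's methods, an unadjusted p under 0.05 with a log2 fold change beyond 1.5, none of the 10 genes passed between dexamethasone and control (1.41% of all genes did) or between the dexamethasone groups (14.2% did). Only *Nfe2l2* passed between dexamethasone + EPC-EVs and control (20.7% did).

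Low mitochondrial counts, the greater depth and the higher glucocorticoid receptor targets all moved with the EPC-EVs group. So did the higher sums of haematopoietic markers, the shifts in osteoblast markers and the lower *Cd34* and *Fabp4*. The part of any of these in the differences was not tested. With the mitochondrial genes left out before scaling, 5 of the 10 were called against dexamethasone and 6 against control. That fit changes only the scaling and cannot show what the low mitochondrial counts go with. In bulk RNA a lower share of cells that make a transcript and less of it per cell cannot be told apart.

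The regulators of NRF2 were measured beside it, as a list of 11 genes. None was called between dexamethasone and control in edgeR or DESeq2 (1 was higher and 1 lower at an unadjusted p under 0.05, against 5.61% and 5.33% of all genes), and *Keap1*, the gene of KEAP1, had a log2 fold change of 0.47 there (SE 0.31, edgeR adjusted p = 0.6). With EPC-EVs added to dexamethasone 4 of the 11 rose, against 20.9% of all genes, and 2 fell, against 18.9%. *Keap1*, the adaptor that delivers NRF2 for destruction, was measured at 23.7 and 26.1 CPM with dexamethasone and 60.8 and 63.9 CPM with EPC-EVs added, a 2.43-fold rise (log2 1.28, edgeR adjusted p = 0.000399), while *Nfe2l2* fell. *Cul3*, the ligase scaffold that KEAP1 works with, fell to 46.3% (log2 -1.11, edgeR adjusted p = 0.000427).

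*Mafg*, whose small MAF protein pairs with NRF2 and also with its rival BACH1, rose 1.94-fold (log2 0.96, edgeR adjusted p = 0.000613), and *Bach1*, which represses many of the same elements, fell to 61.5% (log2 -0.70, edgeR adjusted p = 0.0117). Without either dexamethasone library 3 of the 11 were called, near the 26% and 22.3% of all genes in those fits, and *Bach1* was lost in both fits (edgeR adjusted p = 0.0524 and 0.0721); the fall of *Cul3* was not called with the GC and length trend removed (0.293). Against control 4 rose and 1 fell (19.1% and 17.2% of all genes), with *Keap1* at 3.38-fold, *Mafg* at 3.6-fold, *Rbx1*, the RING subunit of the ligase, at 2.29-fold and *Cul3* at 32.8%; with the trend removed *Keap1* (0.0908) and *Cul3* (0.0948) were not called, and *Rbx1* was lost without either EPC-EVs library (0.0812 and 0.0681).

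Other NRF2 targets were followed as a list of 18. With dexamethasone 15 of the 18 were higher than in both controls without overlap, against 22.8% of all genes. The median of the list's log2 fold changes was 0.61, against 0.01 over all genes. None was called in edgeR, where 11 were higher at an unadjusted p under 0.05, against 5.61% of all genes. DESeq2 called 3 higher, against 0.819%. Without control replicate 1, 11 were called, all higher, against 9.25%. *Hmox1*, which encodes the heme-degrading enzyme heme oxygenase 1, was measured at 94.1 and 56.1 CPM in control and 188 and 177 CPM with dexamethasone (log2 1.27, SE 0.23, edgeR adjusted p = 0.109). *Gclm*, the modifier subunit of the enzyme that starts glutathione synthesis, was 2.03-fold of control (log2 1.02, SE 0.25, edgeR adjusted p = 0.279), and *Gsr*, which reduces oxidized glutathione with NADPH, 1.47-fold (log2 0.56, SE 0.28, edgeR adjusted p = 0.492). *Hmox1* and *Gclm* had log2 fold changes of 1.703 and 0.907 without control replicate 1 and of 0.962 and 1.168 without control replicate 2. Without dexamethasone replicate 2 that of *Hmox1* was 1.319. Both were called higher with no filter on low counts (edgeR adjusted p = 1.26e-07 and 0.0404), at nearly unchanged log2 fold changes (1.274 and 1.024). *Hmox1* was also called by DESeq2 (adjusted p = 0.000114) and, in edgeR, with the replicate number as a block (0.0132) and with the GC and length trend removed (0.0485).

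With EPC-EVs added to dexamethasone 9 of these 18 fell and 1 rose, against 18.9% and 20.9% of all genes, and the median log2 fold change was -0.61. *Slc7a11*, the cystine importer, fell to 23.9% (log2 -2.07, edgeR adjusted p = 0.00523), *Blvrb*, a biliverdin and flavin reductase, to 31.9% (log2 -1.65, edgeR adjusted p = 0.00163), *Fth1*, the ferritin heavy chain, to 33.8% (log2 -1.56, edgeR adjusted p = 1.7e-06) and the glutathione transferase *Gstm1* to 43.2% (log2 -1.21, edgeR adjusted p = 0.000381). *Slc7a11* was low, at 21.4 and 18 CPM with dexamethasone and 2.3 and 7.38 CPM with EPC-EVs added. Its call was lost without dexamethasone replicate 1 (log2 -1.92). *Hmox1* fell to 48.5% (log2 -1.04, edgeR adjusted p = 0.00158) and *Gclm* to 58% (log2 -0.79, edgeR adjusted p = 0.0154), the latter lost without either dexamethasone library, without EPC-EVs replicate 2 and with the GC and length trend removed. *Gsr* had a log2 fold change of -0.18 (edgeR adjusted p = 0.572). Without dexamethasone replicate 1 the list had 6 calls, 5 of them lower, against 26% of all genes called in that fit.

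Against control 3 of the 18 were called higher and 3 lower, shares near the 19.1% and 17.2% of all genes, with a median of -0.04 on the log2 scale. *Ftl1*, the ferritin light chain, was 5.15-fold of control (log2 2.36, edgeR adjusted p = 0.000499) while *Fth1* was at 40.1% (log2 -1.32, edgeR adjusted p = 0.0011). The glutathione transferase *Gstp1* was 2.04-fold of control (edgeR adjusted p = 0.0185) and *Ugdh*, which makes UDP-glucuronic acid, at 55.9% (edgeR adjusted p = 0.0363). The last 2 calls were lost in several fits, with the GC and length trend removed among them, and the list had 3 calls without EPC-EVs replicate 2, against 24.6% of all genes. *Hmox1* (log2 0.23), *Gclm* (0.24) and *Gsr* (0.38) were not called; with the trend removed *Gclm* was called higher (0.97, edgeR adjusted p = 0.0395). The ferritins and the glutathione transferases have near-identical copies or close relatives in the genome, so reads could be split between them.

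Of 17 other genes of the thioredoxin, glutaredoxin, peroxiredoxin and sestrin families none was called between dexamethasone and control in edgeR or DESeq2, and 1 was higher and 1 lower at an unadjusted p under 0.05, against 5.61% and 5.33% of all genes. With EPC-EVs added to dexamethasone 3 rose and 2 fell, against 20.9% and 18.9% of all genes, and against control 4 rose and 2 fell, against 19.1% and 17.2%, so the shares called were near or below those of all genes. The widest difference was in *Txnip*, whose protein binds thioredoxin and holds it inactive. It was measured at 1110 and 2020 CPM in control, 477 and 697 CPM with dexamethasone and 77.9 and 40.7 CPM with EPC-EVs added. The 3 groups did not overlap, and the fall was to 9.77% of dexamethasone alone (log2 -3.36, SE 0.34, edgeR adjusted p = 0.00036) and to 3.66% of control (log2 -4.77, SE 0.41, edgeR adjusted p = 0.00025). Between dexamethasone and control its log2 fold change was -1.42 (SE 0.26, edgeR adjusted p = 0.118). It was -1.78 without control replicate 1, -0.911 without control replicate 2 and -1.715 without dexamethasone replicate 2. *Txnip* was called lower with no filter on low counts (edgeR adjusted p = 1.33e-14), with the replicate number as a block (0.00104) and with the GC and length trend removed (0.0485). With no filter the log2 fold change was again -1.42, so the p-value changed while the fold change did not.

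Thioredoxin itself, *Txn1*, the substrate of *Txnrd1*, was measured at 59.1 and 41.6 CPM in control, 60.7 and 55.4 CPM with dexamethasone and 80.9 and 75.8 CPM with EPC-EVs added (log2 0.39 between the dexamethasone groups, edgeR adjusted p = 0.0838). The EPC-EVs libraries stood above the other 4, but the difference did not pass the test against either group. It was called against control with no filter (edgeR adjusted p = 0.0456), with all 6 libraries in one fit (0.0441), without control replicate 1 (0.0119) and with the GC and length trend removed (0.0349), and against dexamethasone with the trend removed (0.0217). *Sesn1*, a sestrin, rose 2.51-fold over dexamethasone (log2 1.33, edgeR adjusted p = 0.000281) and *Prdx3*, the mitochondrial peroxiredoxin, 1.58-fold (log2 0.66, edgeR adjusted p = 0.0233), while *Sesn3* fell to 59.2% (log2 -0.76, edgeR adjusted p = 9e-04). *Prdx3* was lost without either dexamethasone library or EPC-EVs replicate 2, and *Sesn3* with the GC and length trend removed (0.111). *Prdx2*, another cytosolic peroxiredoxin, was 1.75-fold of control (log2 0.81, edgeR adjusted p = 0.0159), a call lost without EPC-EVs replicate 2 (0.0655). The list's calls went from 5 to 3 without either dexamethasone library, where the share of all genes called went from 39.8% to 26% and 22.3%, and from 6 to 2 against control without EPC-EVs replicate 2, where it went from 36.4% to 24.6%.

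The last list held 18 other genes of the pentose phosphate pathway and of NADPH supply. None was called between dexamethasone and control in edgeR or DESeq2, 1 was higher at an unadjusted p under 0.05, against 5.61% of all genes, and the median log2 fold change was 0.08. Without control replicate 1 this list had 5 calls in that comparison, 4 of them higher, and the regulators and the thioredoxin and related families had 3 each, 2 of them higher; 16% of all genes were called in that fit. With EPC-EVs added to dexamethasone 6 rose and 1 fell, against 20.9% and 18.9% of all genes. *Pgls*, the lactonase that works between *G6pdx* and *Pgd*, was measured at 16.1 and 5.97 CPM in control, 18.9 and 17.5 CPM with dexamethasone and 62.5 and 69.1 CPM with EPC-EVs added. It rose 3.49-fold over dexamethasone (log2 1.81, SE 0.21, edgeR adjusted p = 5.01e-05), where *Pgd* rose 1.4-fold and *G6pdx* did not pass the test.

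Outside the pathway, *Idh1*, the cytosolic isocitrate dehydrogenase that makes NADPH, rose 2.61-fold over dexamethasone (log2 1.39, edgeR adjusted p = 2e-04), and the folate enzymes *Mthfd2* and *Mthfd1* rose 2.95-fold (log2 1.56, edgeR adjusted p = 0.000147) and 1.92-fold (log2 0.94, edgeR adjusted p = 0.0042). Against control 7 of the 18 rose and 1 fell, against 19.1% and 17.2% of all genes, with *Pgls* at 5.69-fold, *Idh1* at 3.81-fold and *H6pd*, the glucose-6-phosphate dehydrogenase of the endoplasmic reticulum, at 3.26-fold. Without dexamethasone replicate 2 the list had 4 calls against dexamethasone, all higher, a share near the 22.3% of all genes called in that fit.

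**Figure D4:**
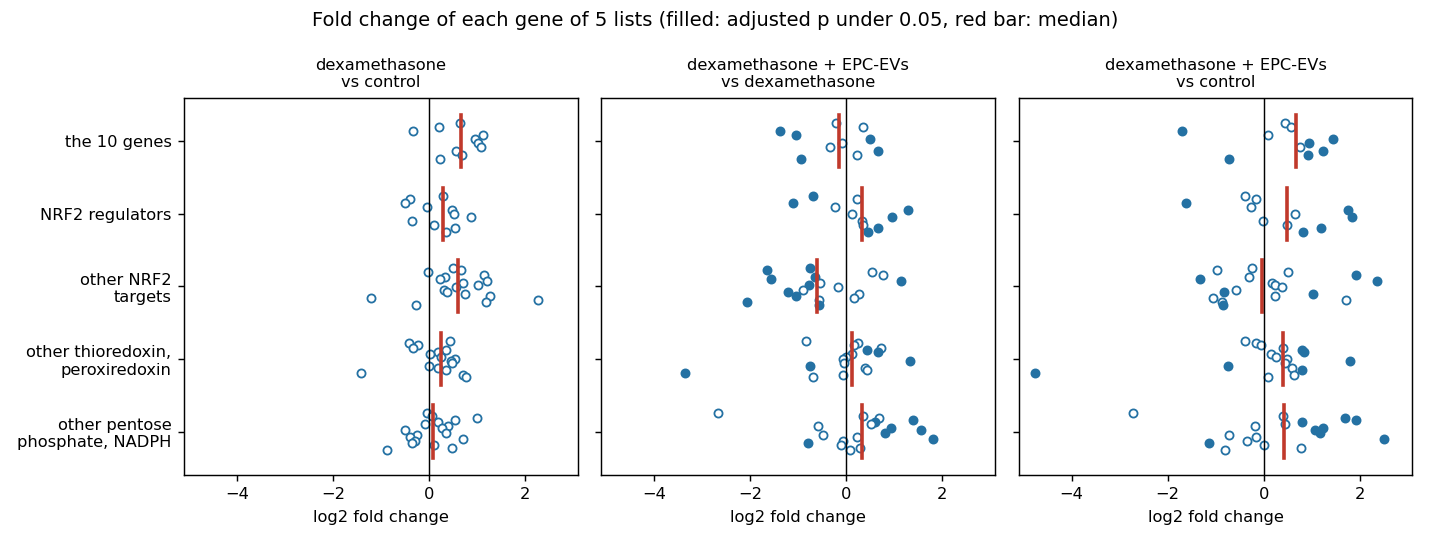
Log2 fold change (horizontal axis) of every tested gene of the 10 genes and of the 4 wider lists in the 3 comparisons; filled circles mark an adjusted p under 0.05 and red bars the median of a list. Between dexamethasone and control no circle is filled and the medians of the 10 genes and of other NRF2 targets are 0.67 and 0.61; with EPC-EVs added to dexamethasone the median of other NRF2 targets is -0.61 and the leftmost circle is *Txnip* at -3.36.

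Summed over the 10 genes, the level was 1260 and 1131 CPM in control, 1654 and 1603 CPM with dexamethasone and 1406 and 1342 CPM with EPC-EVs added. The groups did not overlap, and the EPC-EVs libraries lay between the other groups, with *Nfe2l2*, *Nqo1* and *Txnrd1* lower and *Pgd* and *Taldo1* higher than with dexamethasone alone.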

How the data were processed

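RNA of 6 libraries was sequenced in paired reads; the authors aligned them with HISAT2 to GRCm38 and made the counts per gene with HTSeq 0.6.1, and deposited these raw counts beside FPKM values per gene. A second table of transcript FPKM holds none of the 10 genes and was not used. Counts were tested with edgeR 4.0.16 in R 4.3.3 (TMM, filterByExpr, robust quasi-likelihood test) on the 4 libraries of each comparison, with Benjamini-Hochberg adjustment of the p-values over the whole table tested, and an adjusted p under 0.05 was called. CPM used TMM factors over the 6 libraries. DESeq2 1.42.0, other scalings, no filter, all 6 libraries, a replicate block, leaving out each library or the mitochondrial genes, and a GC and length trend (loess, span 0.4, on 21646 of the 21686 genes, GENCODE vM21) were alternatives. The fits were tested on simulated data.

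An exact permutation test of 2 against 2 libraries cannot give a two-sided p under 0.333 and was not run, and the p-values of the fits measure only the spread between these libraries. A count of 0 allows up to 0.228 to 0.583 CPM (3 counts). The replicates differed by more than counting error, their chi-square divided by its degrees of freedom being 7.36 to 21.7. Same-numbered libraries of 2 groups did not deviate together, so the block was not used for the results. Gene coordinates are those of vM21, promoter windows those of RefSeq. The 10 genes and the wider lists were chosen with earlier results of these data known. From each wider list the text names up to 4 called genes per comparison, those with the largest fold change and a mean of at least 10 CPM, and *Keap1*, *Bach1*, *Txn1*, *Txnip*, *Pgls*, *Gclm*, *Gsr* and *Hmox1* whatever they did.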

Additional observations from a re-analysis of the deposited data

How the results depend on the processing

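Between dexamethasone and control, the number of the 10 genes called (0) was 1 with RLE size factors, 4 with DESeq2, 4 with no filter on low counts, 1 with all 6 libraries in one fit and 2 with the GC and length trend removed, and ranged from 0 to 6 with each library left out; it was 0 with upper-quartile scaling, without the mitochondrial genes and at the study's threshold. Between the dexamethasone groups, the number called (5) was 8 with the trend removed and 0 at the study's threshold, and ranged from 2 to 6 with each library left out. Between dexamethasone + EPC-EVs and control, the number called (6) was 1 at the study's threshold and ranged from 5 to 8 with each library left out. With the replicate number as a block the counts were 2, 5 and 7; correlations of same-numbered libraries' deviations were 0.0605, 0.0131 and 0.00932 over 13582 genes, so the numbers did not mark a pairing.

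Of 120 fold changes recomputed for the 10 genes in each comparison, 0, 4 and 2 changed sign. Between the dexamethasone groups these were *Prdx1* (0.026) and *Me1* (-0.001, 0.668 without replicate 1) without EPC-EVs replicate 2 and, with the trend removed, *Prdx1* (0.41, edgeR adjusted p = 0.0313) and *Tkt* (-0.18). Against control they were *Nqo1* (-0.498 without EPC-EVs replicate 1, 0.526 without replicate 2) and *G6pdx* (-0.048) with the trend removed. Of the named list genes, *Txn1* (-0.02, dexamethasone and control, without control replicate 2, to 0.482 without replicate 1), *Gsr* (0.192 without dexamethasone replicate 1 to -0.462 without replicate 2, dexamethasone groups), *Gclm* (-0.02, EPC-EVs and control, without EPC-EVs replicate 1, to 0.483 without replicate 2, and 0.974 with the trend removed, edgeR adjusted p = 0.0395) and *Hmox1* (EPC-EVs and control: 0.696 without control replicate 1, -0.069 without control replicate 2, -0.143 without EPC-EVs replicate 1 and -0.36 with the trend removed) changed sign; in the main results none of these was called in that comparison. The cause was not tested. No scaling moved the median of all genes by over 0.1 on the log2 scale.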
